A study of Mus musculus with 18 samples.

Results

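The proteins of the mitochondrial ribosome are encoded by nuclear genes, and the genes described here are every protein-coding mouse gene whose symbol starts with Mrps or Mrpl followed by a number. The rule uses the symbol and no measured value, and it gave 78 of the 45706 genes counted in each kidney. Of these, 29 are named for the small subunit (*Mrps*) and 49 for the large subunit (*Mrpl*).

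The counts came from RNA sequencing of 18 whole kidneys of C57BL/6 mice, removed after bilateral ischemia of 22.5 min and reperfusion of 12 h. The KO kidneys carried floxed alleles together with Pax8rtTA and TetOcre, either CXCL12 F/F (*Cxcl12* KO, n = 5) or Cmyc F/F (*Myc* KO, n = 5). The control kidneys carried the same floxed alleles and Pax8rtTA but no TetOcre (*Cxcl12* control, n = 3, and *Myc* control, n = 5). All mice were young adult male littermates that had received doxycycline followed by a washout, per the study's methods, so the controls share the drug, the floxed alleles and the injury. There was no uninjured group. The Pax8rtTA driver is active in tubule cells, whereas a whole kidney also holds cells that keep the gene, so less RNA per cell and fewer cells of a type cannot be told apart in these levels.

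Mitochondria keep their own ribosome, which makes a small set of membrane subunits of the respiratory chain and of the ATP synthase. Its RNAs are transcribed from mitochondrial DNA, but its proteins are made in the cytosol and imported, and many of them have no counterpart in bacteria. The small subunit reads the messenger RNA and the large subunit forms the peptide bond. Proximal tubule cells are rich in mitochondria and depend on oxidative phosphorylation. MYC is a transcription factor known for its action on genes of ribosome production and growth, and CXCL12 is a chemokine that signals through CXCR4.

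The reads assigned to genes numbered 12918220 to 29749500 per kidney, and the 78 genes took 0.222% to 0.341% of them. The unmapped share was under 5% in 6 kidneys, which also held more reads (at least 22437067 on genes) than the other 12 (at most 18006784). They were *Cxcl12* KO 1 and 2, *Myc* KO 3 and 5 and *Myc* control 1 and 3, and no *Cxcl12* control was among them. The targeted genes were lower in the kidneys labelled KO. *Myc* was at 37.0, 29.2, 29.7, 26.6 and 32.4 CPM in the *Myc* KO kidneys against 117, 92.7, 85.9, 98.9 and 79.7 CPM in their controls, where CPM is the normalized count scaled to the same library size in every kidney. The groups did not overlap (log2 fold change -1.61, SE 0.12, adjusted p = 8.82e-05, quasi-likelihood F-test of edgeR). *Cxcl12* was at 28.7, 36.3, 29.2, 26.3 and 40.9 CPM in the *Cxcl12* KO kidneys and at 55.1, 60.5 and 44.9 CPM in their controls. These groups did not overlap either, but the change did not pass the threshold of 0.05 (log2 fold change -0.73, SE 0.15, adjusted p = 0.0942). Markers of tubule cells were present in every group, with a sum over 8 proximal tubule markers of 6940 to 12790 CPM, while the 5 lymphocyte markers summed to at most 1.25 CPM.

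Nearly all of the genes were well covered. In every kidney, 74 of the 78 had more than 100 reads. Per kilobase of exon the level had a median of 20.4 CPM over the *Mrps* genes and 23.7 CPM over the *Mrpl* genes, averaged over the 18 kidneys. The highest *Mrps* genes on this scale were *Mrps6*, at 128 CPM per kilobase, and *Mrps21*, at 59.8 CPM per kilobase. Both encode counterparts of bacterial small subunit proteins. The highest *Mrpl* genes were *Mrpl52*, at 88.9, and *Mrpl33*, at 85.5 CPM per kilobase. These levels use the exons of the basic transcripts, which matters for *Mrpl33* (478 bases, against 7326 over all its annotated transcripts), and 159 exon bases of *Mrps6* also belong to *Slc5a3* on the same strand. At the low end stood *Mrps25* at 4.08 and *Mrps33* at 2.46 CPM per kilobase, whose proteins are specific to mitochondria. The value of *Mrps25* is uncertain, since 4590 of its 6576 exon bases over all transcripts overlap *Nr2c2* on the other strand. *Mrpl23* reached 0.783 and *Mrpl53* 0.14 CPM per kilobase. These values of the last pair are uncertain: *Mrpl23* has a pseudogene copy with which it can share reads, and 695 of the 790 exon bases of *Mrpl53* over all its transcripts also belong to the annotated gene Gm42688 on the same strand. *Mrpl53* held 0 to 4 reads per kidney. *Mrpl53* did not pass the filter on low counts, which left 77 of the 78 genes tested in each comparison. *Mrps36* and *Mrpl48* also have pseudogene copies, and 33 of the 78 genes share exon bases with another gene.

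The first comparison asked what tubular loss of *Myc* did to these genes in the injured kidney. All 77 genes tested had a lower mean level in *Myc* KO than in *Myc* control kidneys, with log2 fold changes from -0.59 to -0.0005 and a median of -0.28. Over all 14936 genes tested the median was -0.0008, and 50.1% of them had a negative log2 fold change. Of the 77 genes, 4 fell with an adjusted p under 0.05 and 0 rose. Among all genes 1.29% fell and 0.355% rose by that rule, 1.65% in all. The unadjusted p was under 0.05 and the change negative for 47 of the 77, against 11.2% of all genes. In 17 of the 77 every KO kidney was below every control kidney, against 3.92% of all genes, and in 0 of the 77 was every KO kidney above (2.05% of all genes). The negative sign was shared across the family in this fit. Among the genes named here, it turned under alternatives for *Mrps6*, *Mrpl18*, *Mrpl33*, *Mrps18c*, *Mrps21*, *Mrps25* and *Mrps33*. For 73 of the 77 genes the change did not pass the threshold for a single gene. The number called varied with the kidneys fitted. Leaving out 1 kidney at a time gave 0 to 20 genes of the family called, all lower, while the share called among all genes ran from 0.139% to 5.8%. All 4 genes were still called without *Myc* control 1 or 3, 2 of them without *Myc* KO 1, 1 without *Myc* control 4 and 0 without any one of the other 6 kidneys.

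**Figure D1:**
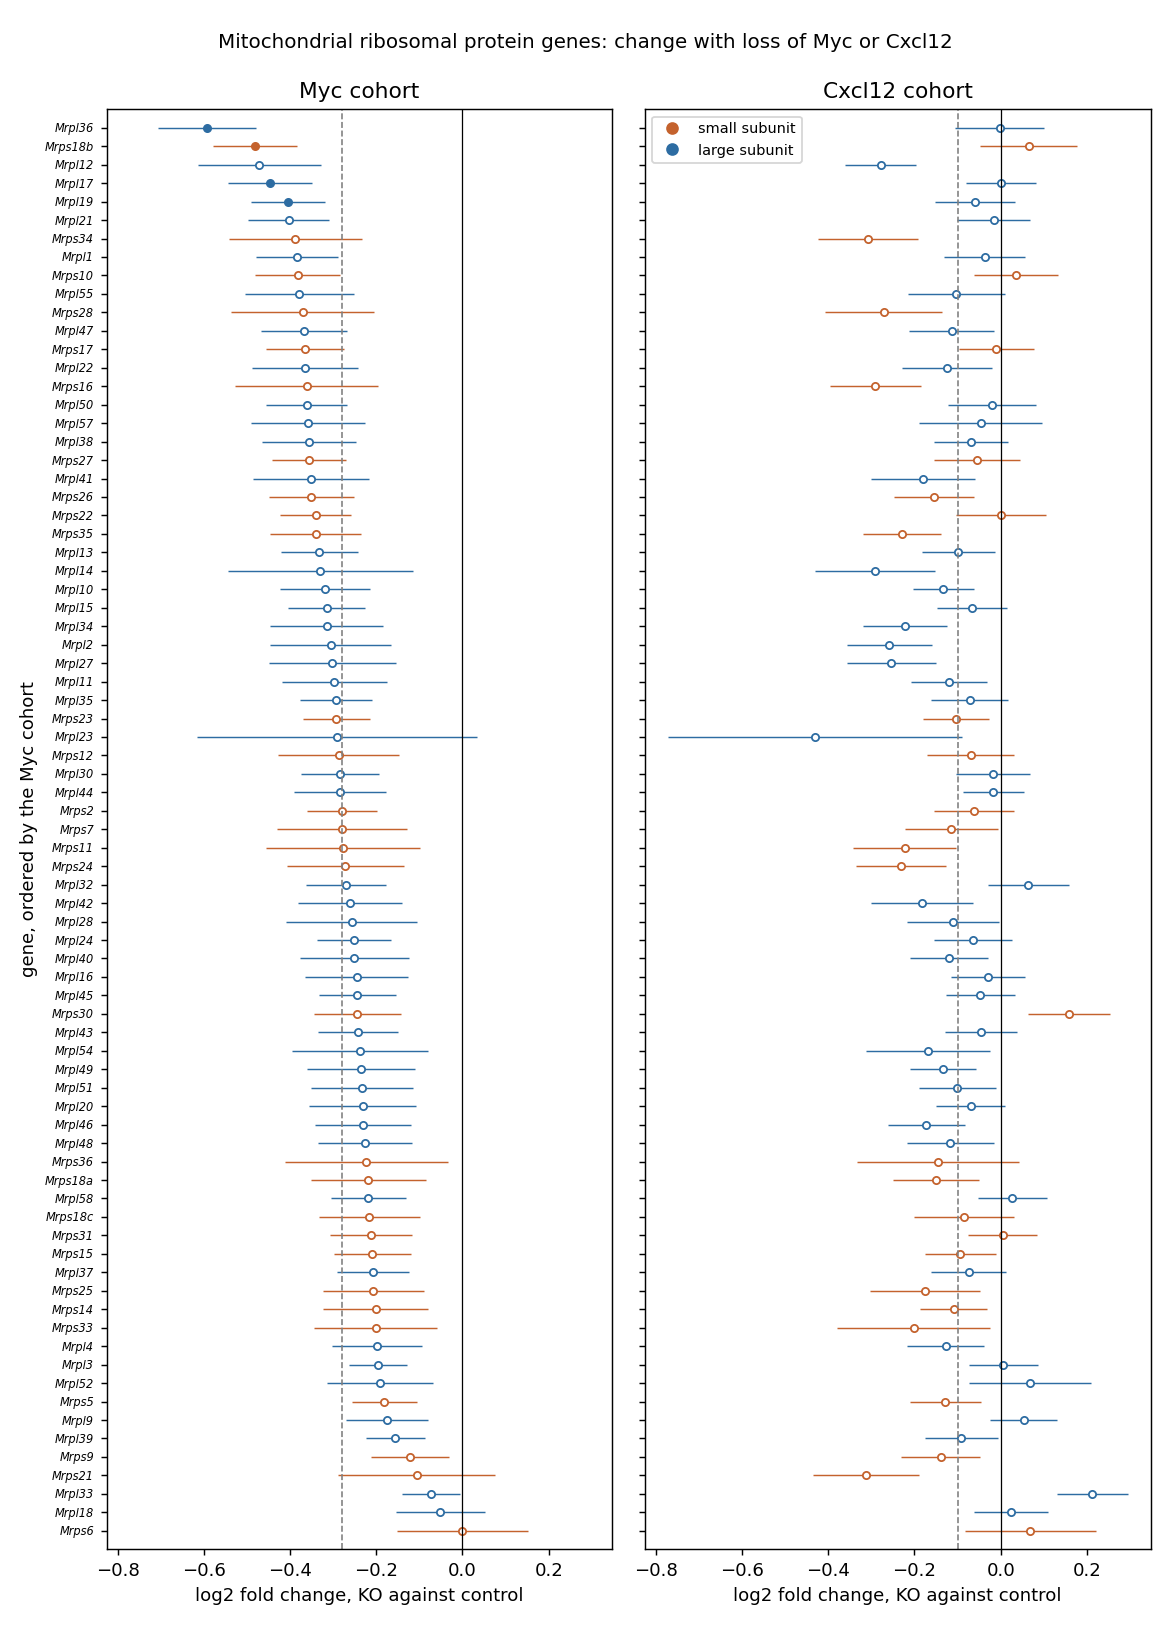
Log2 fold change with standard error (horizontal axis) of each of the 77 genes tested (vertical axis, ordered by the Myc cohort) in Myc KO against Myc control kidneys (left) and Cxcl12 KO against Cxcl12 control kidneys (right). Filled points have an adjusted p under 0.05, and dashed lines mark the medians of -0.28 and -0.098. All 77 points on the left lie below 0, and on the right 14 lie above it. Under some alternatives Mrps6, at -0.0005, and several other genes on the left turned positive.

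*Mrpl36* encodes the counterpart of one of the smallest proteins of the bacterial large subunit. It was at 18.1, 19.4, 17.7, 17.1 and 19.1 CPM in the *Myc* KO kidneys and at 25.1, 28.9, 22.6, 35.5 and 26.3 CPM in the *Myc* control kidneys. All KO kidneys were below all controls, and *Myc* control 4 was the highest. It had the largest change of the family (log2 fold change -0.59, SE 0.11, adjusted p = 0.0278, edgeR). The call was also lost with the counts of strand column 3 (adjusted p = 0.0501, edgeR). The gene lies on chromosome 13 (73328513 to 73332178, plus strand, GRCm38), and 30 of its 1161 exon bases overlap *Ndufs6* on the other strand.

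*Mrps18b*, one of the paralogues of the S18 protein, belongs to the small subunit. Its levels were 30.7, 23.4, 27.7, 23.4 and 23.6 CPM in the KO kidneys and 34.7, 39.5, 32.0, 37.9 and 35.8 CPM in the controls. The groups did not overlap, with *Myc* KO 1 the highest KO kidney and *Myc* control 3 the lowest control. The log2 fold change was -0.48 (SE 0.10, adjusted p = 0.0320, edgeR). After a correction for exon length and GC content *Mrps18b* was no longer called (adjusted p = 0.0785, edgeR). The gene lies on chromosome 17 (35910379 to 35916389, minus strand), and 638 of its 2089 exon bases over all transcripts overlap the antisense gene Gm16279. The other S18 paralogues, *Mrps18a* and *Mrps18c*, had log2 fold changes of -0.22 (SE 0.13, adjusted p = 0.356) and -0.22 (SE 0.12, adjusted p = 0.296), and their groups overlapped.

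*Mrpl19* encodes a large subunit protein of bacterial type. It was at 22.2, 22.0, 23.2, 22.4 and 21.7 CPM in the KO kidneys against 28.4, 28.9, 25.9, 35.2 and 29.4 CPM in the controls. The KO kidneys lay close together and all were below the controls (log2 fold change -0.40, SE 0.09, adjusted p = 0.0371, edgeR). *Mrpl19* was not called with limma voom (adjusted p = 0.053). Nor was it called with strand column 4 (log2 fold change -0.34, adjusted p = 0.0912, edgeR). The gene lies on chromosome 6 (81957851 to 81965958, minus strand) and shares 1962 of its 5450 exon bases over all transcripts with *Gcfc2* on the other strand.

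*Mrpl17*, also of bacterial type, was at 51.8, 50.9, 45.6, 46.1 and 47.2 CPM in the KO kidneys and at 55.0, 70.1, 57.4, 77.3 and 70.0 CPM in the controls. The groups did not overlap, and the controls with under 5% unmapped reads, 1 and 3, were the lowest controls. The log2 fold change was -0.45 (SE 0.10, adjusted p = 0.0423, edgeR). *Mrpl17* was not called with limma voom (adjusted p = 0.0535). With edgeR the call was lost with strand column 3 (adjusted p = 0.0652) and after the correction for exon length and GC content (adjusted p = 0.0586). The gene lies on chromosome 7 (105803206 to 105811099, minus strand) and is the only one of these 4 genes with no exon overlap. Over the 45 genes tested without any exon overlap, 45 had a negative log2 fold change, with a median of -0.28, and *Mrpl17* alone was called.

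*Mrpl12* encodes the stalk protein of the large subunit, which helps to bring translation factors to the ribosome. It was at 63.0, 61.2, 51.0, 58.0 and 50.9 CPM in the *Myc* KO kidneys and at 61.0, 84.5, 60.6, 103 and 85.0 CPM in the *Myc* controls. The groups overlapped, since controls 1 and 3 stood at the level of the highest KO kidneys, and the change did not pass the threshold (log2 fold change -0.47, SE 0.14, adjusted p = 0.105, edgeR). At the other end of the family *Mrps6* was at 110, 103, 104, 100 and 139 CPM in the KO kidneys and at 88.0, 99.6, 132, 90.6 and 147 CPM in the controls. These groups overlapped, with the highest kidneys in both (log2 fold change -0.0005, SE 0.15, 95% interval -0.33 to 0.33), and the sign depended on the processing. *Mrpl18* (log2 fold change -0.05, SE 0.10), *Mrpl33* (-0.07, SE 0.07) and *Mrps21* (-0.11, SE 0.18) were the next smallest changes. Of these 4 genes, the intervals of *Mrps6* and *Mrps21* include the family median of -0.28.

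**Figure D2:**
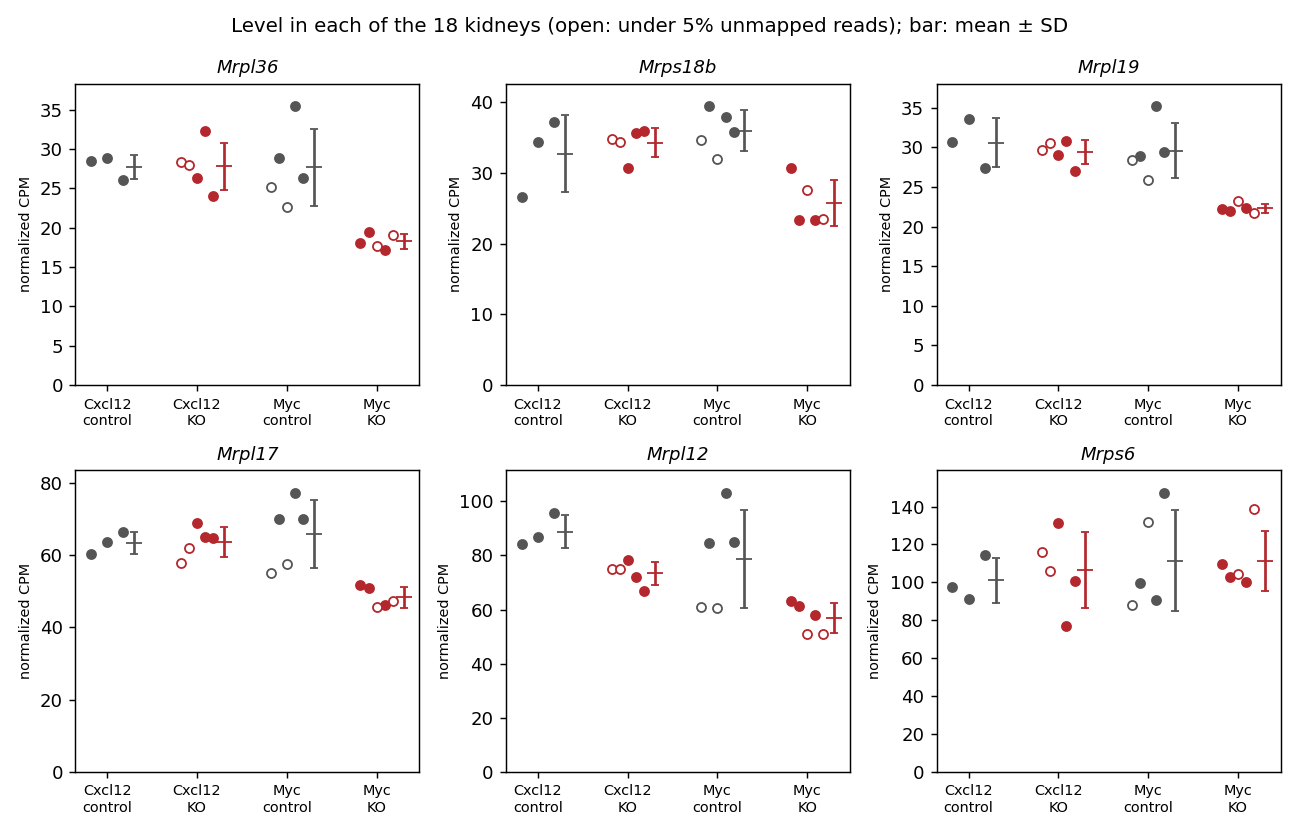
Normalized CPM (vertical axis, from 0) of 6 genes in each kidney of the 4 groups, with open points for kidneys with under 5% unmapped reads and bars for mean ± SD. For Mrpl36, Mrps18b, Mrpl19 and Mrpl17 all Myc KO kidneys lie below all Myc controls, Mrpl12 overlaps in the Myc cohort and not in the Cxcl12 cohort, and Mrps6 overlaps in both.

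MYC binds E-box sequences, and the promoters of the genes called were read for them. A RefSeq promoter window was found for 69 of the 78 genes and for 3 of the 4 called (none for *Mrpl19*). The 250 bases before the annotated start are shown for those 3 genes, in GRCm38.p6, each 5′ to 3′ on the strand of its gene, with the E-box CACGTG and the related CACGCG in capitals.
Mrpl36, chr13:73330759-73331008, plus strand: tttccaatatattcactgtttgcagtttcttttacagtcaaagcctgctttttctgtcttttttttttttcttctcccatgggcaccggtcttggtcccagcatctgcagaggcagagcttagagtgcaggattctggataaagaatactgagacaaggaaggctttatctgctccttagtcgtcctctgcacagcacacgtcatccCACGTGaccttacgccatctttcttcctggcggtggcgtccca
Mrps18b, chr17:35916441-35916690, minus strand: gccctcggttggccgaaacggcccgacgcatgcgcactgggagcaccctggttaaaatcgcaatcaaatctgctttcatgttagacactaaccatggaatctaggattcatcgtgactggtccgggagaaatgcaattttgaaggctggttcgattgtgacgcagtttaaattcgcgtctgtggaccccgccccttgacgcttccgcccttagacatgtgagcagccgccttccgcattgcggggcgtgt
Mrpl17, chr7:105811088-105811337, minus strand: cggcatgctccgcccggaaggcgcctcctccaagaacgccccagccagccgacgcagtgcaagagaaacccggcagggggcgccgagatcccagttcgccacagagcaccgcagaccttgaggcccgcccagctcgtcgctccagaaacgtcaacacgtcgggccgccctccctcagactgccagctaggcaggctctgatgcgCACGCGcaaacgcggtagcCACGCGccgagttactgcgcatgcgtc

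The window of *Mrpl36* held CACGTG once, starting 43 bases before the start site, and that of *Mrpl17* held CACGCG at 46 and at 27 bases before it, while that of *Mrps18b* held neither. The RefSeq start of *Mrpl36* used here lies inside the gene as placed above, whose longest annotated extent begins further upstream. On either strand of the full windows, which run to 50 bases after the start, CACGTG occurred in 5 of the 69 genes (7.25%) and in 9.23% of the 16338 protein-coding genes with a window. CACGCG occurred in 13 of the 69 (18.8%) against 14.3%. The ETS motif CCGGAAGT occurred in 12 of the 69 (17.4%, against 5.99%), the YY1 motif in 5 (7.25%, against 1.12%) and the NRF1 motif in 3 (4.35%, against 1.53%), which makes 5 motifs searched. Matches of different motifs shared no bases in these windows. The median log2 fold change in the *Myc* cohort was -0.23 for the genes with CACGTG and -0.27 for those without it, and -0.25 and -0.27 with and without CACGCG. With and without the other motifs it was -0.23 and -0.28 for ETS, -0.28 and -0.27 for YY1 and -0.18 and -0.28 for NRF1. *Mrpl36* was the 1 called gene among the 5 with CACGTG, beside *Mrpl2*, *Mrpl20*, *Mrpl37* and *Mrps18c*. A match is a stretch of letters and not a measured binding site.

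Both subunits had negative medians in the *Myc* cohort. Among all genes there 1.29% were called lower, and for 3.92% every KO kidney was below every control. Of the 29 *Mrps* genes 1 was called lower and 6 had non-overlapping groups, with a median log2 fold change of -0.28. Of the 48 *Mrpl* genes tested 3 were called lower and 11 had non-overlapping groups, with a median of -0.28. The medians differed by 0.007. The names do not always match the place in the ribosome: the proteins of *Mrps30* and *Mrps18a* sit in the large subunit, and that of *Mrps36* is a subunit of the oxoglutarate dehydrogenase complex. With these moved, the medians were -0.28 over 26 small and -0.28 over 50 large subunit genes. By origin, the 46 genes of bacterial type had a median of -0.29 with 3 called, and the 29 tested genes specific to mitochondria had a median of -0.24 with 1 called.

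Single members with a special role had values in the same range, and none of the following passed the threshold. *Mrps12*, whose protein lies at the decoding site, had a log2 fold change of -0.29 (SE 0.14, adjusted p = 0.251). *Mrpl58*, a peptidyl-tRNA hydrolase built into the large subunit, had -0.22 (SE 0.09, adjusted p = 0.178). *Mrps30* had -0.24 (SE 0.10, adjusted p = 0.190), and *Mrps36* had -0.22 (SE 0.19, adjusted p = 0.512), all by edgeR.

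The family was also read kidney by kidney. For each gene the log2 CPM was set against its mean over the 10 kidneys of the *Myc* cohort, and the median over the 78 genes was taken in each kidney. The median was 0.22, 0.36 and 0.20 in *Myc* control 2, 4 and 5, and -0.04 and -0.03 in *Myc* control 1 and 3. It was -0.004, -0.08 and -0.12 in *Myc* KO 1, 2 and 4, and -0.21 and -0.26 in *Myc* KO 3 and 5. The groups thus met at *Myc* KO 1 and *Myc* control 1 and 3. *Myc* control 4 was the highest kidney of the cohort for 56 of the 78 genes and *Myc* KO 5 the lowest for 40. In both groups the kidneys with under 5% unmapped reads had the lowest medians. Among the 6 *Myc* cohort kidneys with 5% or more unmapped reads (3 against 3) the median log2 fold change was -0.33, with 77 of 77 negative, 62 at an unadjusted p under 0.05 and 0 called (8 of 15033 genes called). Among the 4 with under 5% (2 against 2) it was -0.19, with 71 of 77 negative, 9 at an unadjusted p under 0.05 and 0 called (0 of 15722 genes). With this split as a covariate in the fit of all 10 kidneys 33 genes of the family were called, all lower, when 6.39% of all genes were called. The direction of the family was therefore the same on both sides of the split, and the number of genes called was not stable.

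**Figure D3:**
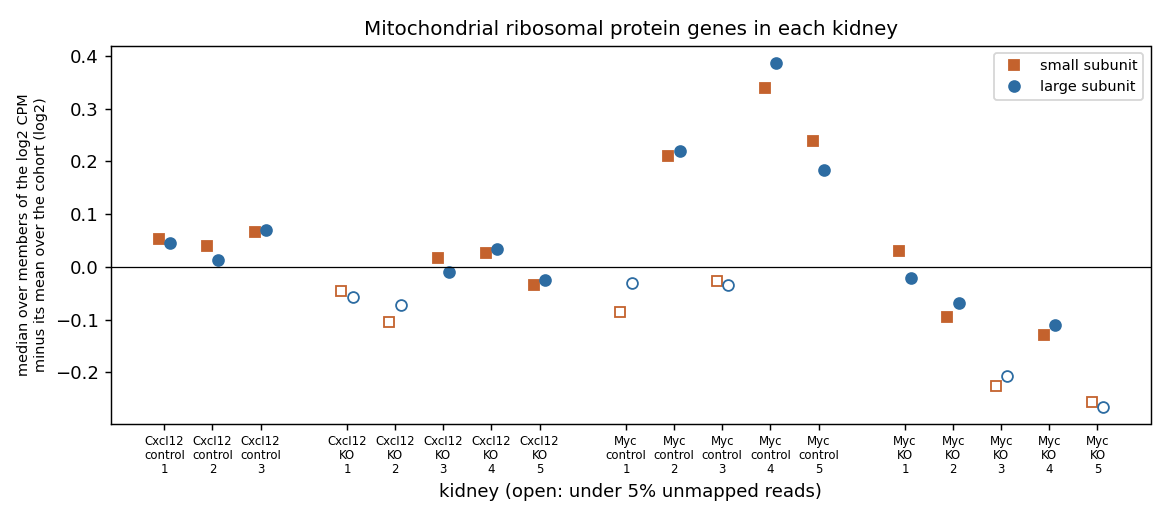
Median over the small subunit (squares) and large subunit (circles) genes of the log2 CPM minus its mean over the cohort (vertical axis) in each of the 18 kidneys (horizontal axis), with open points for kidneys with under 5% unmapped reads. Small and large subunit genes lie close together in each kidney, from -0.26 in Myc KO 5 to 0.36 in Myc control 4 for all genes together.

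Markers of other cells were measured in the same kidneys. The summed level of 5 neutrophil markers was 139 to 272 CPM in the *Myc* KO and 45.5 to 240 CPM in the *Myc* control kidneys, that of 4 endothelial markers 551 to 770 against 395 to 671 CPM and that of 3 podocyte markers 481 to 597 against 314 to 542 CPM. None of these markers was called, and all 5, 4 and 3 of them had positive log2 fold changes. At an unadjusted p under 0.05 (edgeR) 0, 2 and 2 of them were higher, against 10.6% of all genes. Positive log2 fold changes were also found for 6 of 8 proximal tubule markers and 5 of 6 loop, distal and collecting duct markers. Of 5 macrophage markers 2 were positive and 3 negative, and no marker of these lists was called. Proximal tubule markers summed to 6940 to 11410 CPM in KO and 7393 to 11530 CPM in control kidneys, and tubular injury markers (*Havcr1*, *Lcn2* and *Krt20*) to 2787 to 3262 against 2543 to 3308 CPM. Within that sum *Havcr1* was at 72.7 to 275 CPM in KO and 206 to 901 CPM in control kidneys, with overlap (log2 fold change -1.32, SE 0.43, adjusted p = 0.12, edgeR). The other genes of that list had log2 fold changes of -0.02 and 0.39. The part of all these markers in the result was not tested. The genes of the family are also short: their exon length had a median of 1398 bases, against 3346 bases over the protein-coding genes tested. After a correction for exon length and GC content in each kidney the median log2 fold change was -0.20, with 73 of 77 negative. Then 4 of the 77 were called, 2 of them among the 4 above, when 2.37% of all genes were called.

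The second comparison asked the same of tubular loss of *Cxcl12*. The median was closer to 0 and the signs were mixed. Of the 77 genes tested 63 had a negative log2 fold change, against 49.8% of all genes, and 14 a positive one, with a median of -0.098, a lowest value of -0.43 and a highest of 0.21. No gene of the family was called (smallest adjusted p = 0.206, edgeR), when 0 of 15154 genes (0%) were called in all. At an unadjusted p under 0.05, 9 of the 77 were lower and 1 was higher, against 6.63% and 6.41% of all genes. All KO kidneys were below all controls for 6 of the 77 (4.72% of all genes) and above for 1 (4.96%). The share of non-overlapping genes in the family was thus near that of all genes. The DESeq2 Wald test called 355 genes in this cohort and 0 of the family.

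*Mrpl12* had the smallest p of the family in the *Cxcl12* cohort. It was at 74.99, 74.9, 78.3, 72.2 and 66.8 CPM in the *Cxcl12* KO kidneys and at 84.1, 86.7 and 95.7 CPM in their controls. The groups did not overlap (log2 fold change -0.28, SE 0.08, adjusted p = 0.206). *Mrps34*, a small subunit gene specific to mitochondria with exon bases shared with *Mapk8ip3* and *Nme3*, was at 19.8, 19.9, 23.3, 22.0 and 25.8 CPM in the KO and at 25.2, 25.7 and 31.0 CPM in the control kidneys. Only *Cxcl12* KO 5 reached the controls (log2 fold change -0.31, SE 0.12, adjusted p = 0.306). *Mrps21* was at 26.5, 25.4, 31.6, 35.2 and 27.6 CPM in KO against 37.2, 31.6 and 39.6 CPM in control kidneys, with overlap (log2 fold change -0.31, SE 0.12, adjusted p = 0.327). *Mrpl14*, another large subunit gene of bacterial type, had a log2 fold change of -0.29 (SE 0.14, adjusted p = 0.403). *Mrpl23* had the lowest value, -0.43 (SE 0.34, adjusted p = 0.616), on 8 to 22 reads per kidney.

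*Mrpl33* stood apart in the other direction. It was at 40.2, 43.8, 45.4, 42.8 and 48.3 CPM in the *Cxcl12* KO kidneys and at 37.3, 37.8 and 38.7 CPM in the controls. Every KO kidney was above every control, yet the change did not pass the threshold (log2 fold change 0.21, SE 0.08, adjusted p = 0.32, edgeR). Of the exon bases of *Mrpl33* over all its transcripts, 261 of 7326 belong also to the gene Gm43809 on the same strand. The next positive values were those of *Mrps30* (0.16, SE 0.09), *Mrps6* (0.07, SE 0.15) and *Mrpl52* (0.07, SE 0.14), all with overlapping groups.

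By subunit the medians in the *Cxcl12* cohort were -0.11 over the *Mrps* and -0.07 over the *Mrpl* genes, a difference of -0.04 that shrank to -0.004 after the correction for exon length and GC content. The median over the family was -0.057 after that correction. Per kidney, the median set against the cohort mean was 0.05, 0.03 and 0.07 in the 3 controls, and it was -0.05, -0.08, -0.006, 0.03 and -0.03 in the KO kidneys. *Cxcl12* KO 4 lay within the controls, and the KO kidneys with under 5% unmapped reads, 1 and 2, were the lowest. Without those 2 kidneys the median log2 fold change was -0.08, with 59 of 77 negative. Injury markers summed to 2536 to 3051 CPM in the KO and 1571 to 2368 CPM in the control kidneys, and neutrophil markers to 29.4 to 136 against 19.3 to 25.9 CPM, both without overlap, while 8 of 8 proximal tubule markers had negative log2 fold changes. Of the 6 adipose, adrenal and muscle markers 4 were tested, and 4 had negative log2 fold changes, with a median of -1.86 and sums over the list of 0.493 to 11.1 CPM in KO and 9.51 to 12.3 CPM in control kidneys. None of these markers was called, and their part in the result was not tested.

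Whether the family responded differently to loss of *Myc* and of *Cxcl12* was tested as the difference of both KO effects in 1 fit of all 18 kidneys. The difference (*Myc* minus *Cxcl12* effect) was negative for 74 of the 77 genes, against 51% of all genes, with a median of -0.19 against -0.0065 over all 15903 genes tested. None of the 77 was called (smallest adjusted p = 0.114, edgeR), when 11 genes (0.0692%) were called in all, 0.0377% with a negative and 0.0314% with a positive difference. At an unadjusted p under 0.05 the difference was negative for 18 of the 77, against 6.77% of all genes, and positive for 0 (4.62%). The DESeq2 Wald test called 3 of the 77, when it called 1.97% of all genes. Without *Myc* control 4, the kidney with the highest levels of the family, the median difference was -0.119 and 59 of the 77 were negative. The smallest p-values were those of *Mrpl36* (difference -0.60, SE 0.16, adjusted p = 0.114), *Mrps18b* (-0.55, SE 0.15, adjusted p = 0.120) and *Mrpl17* (-0.45, SE 0.13, adjusted p = 0.143). A larger fall with loss of *Myc* than with loss of *Cxcl12* was thus not established for a single gene by this test.

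For those genes the *Cxcl12* cohort gave values near 0. They were picked by the p of the difference, which uses these same values, so the values are no separate support for a difference. *Mrpl36* was at 28.3, 28.0, 26.4, 32.2 and 24.1 CPM in the *Cxcl12* KO and 28.5, 28.8 and 26.0 CPM in the *Cxcl12* control kidneys (log2 fold change -0.002, 95% interval -0.23 to 0.23). *Mrps18b* had a log2 fold change of 0.06 (interval -0.18 to 0.31) and *Mrpl17* one of 0.0006 (interval -0.18 to 0.18). *Mrpl12* had log2 fold changes of -0.47 and -0.28 in the *Myc* and *Cxcl12* cohorts, and its difference of -0.20 (SE 0.18, adjusted p = 0.747) did not pass the threshold.

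Other nuclear genes of mitochondrial translation also had negative medians in the *Myc* cohort. Of 28 genes for mitoribosome assembly and ribosomal RNA modification 28 had negative log2 fold changes, with a median of -0.24. Against 1.29% of all genes, 1 of the 28 was called lower. That was *Noa1*, a GTPase needed to build the small subunit, at 20.5, 23.8, 21.4, 19.9 and 17.6 CPM in the *Myc* KO and 32.5, 25.03, 25.6, 36.2 and 28.5 CPM in the *Myc* control kidneys. Its groups did not overlap (log2 fold change -0.52, SE 0.12, adjusted p = 0.0462, edgeR). The call was lost in 9 of the 10 fits that left out 1 kidney, all but that without *Myc* control 3, and also with limma voom (adjusted p = 0.0549), either strand column, the length and GC correction (adjusted p = 0.0516) and a stricter filter (adjusted p = 0.0501). Of 17 genes for mitochondrial translation factors 16 were negative, with a median of -0.21 and 0 called, and all 5 genes for mitoribosomal proteins with other names were negative, with a median of -0.29 and 0 called. In the *Cxcl12* cohort 19 of the 28, 15 of the 17 and 3 of the 5 were negative, with medians of -0.09, -0.14 and -0.05 and 0 called.

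The family was set beside the cytosolic ribosome and the respiratory chain. In the *Myc* cohort 74 of 81 cytosolic ribosomal protein genes were negative, with a median of -0.30 and 1 called lower. Of 80 nuclear respiratory chain genes 76 were negative, with a median of -0.13 and 0 called. Among all genes in that cohort 1.29% were called lower. In the *Cxcl12* cohort the median was 0.05 over the cytosolic ribosomal protein genes (26 of 81 negative) and -0.16 over the respiratory chain genes (74 of 80 negative). The mitoribosomal genes, at -0.28 and -0.098, lay near the first list with loss of *Myc* and between the lists with loss of *Cxcl12*. Differences between the lists were not tested.

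**Figure D4:**
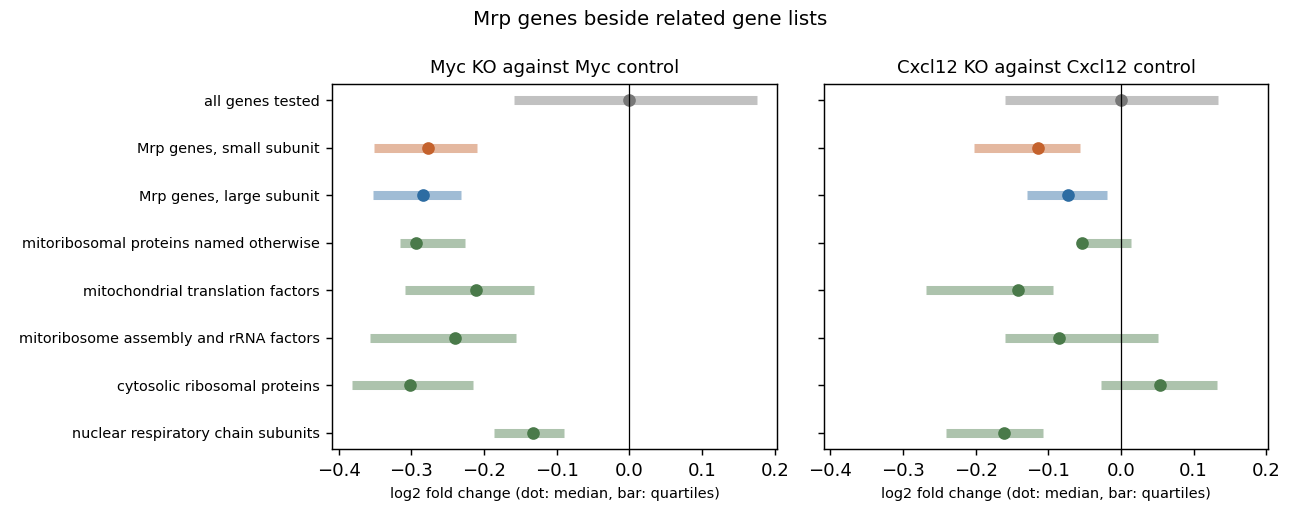
Median (dot) and quartiles (bar) of the log2 fold change (horizontal axis) over all genes tested, the Mrps and Mrpl genes and 5 related gene lists (vertical axis) in the Myc cohort (left) and the Cxcl12 cohort (right). Every list but that of all genes lies below 0 on the left, and on the right the cytosolic ribosomal protein genes have a median of 0.05.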

How the data were processed

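The deposited values are raw counts of reads for each gene, which the authors obtained with Trimmomatic 0.32 and STAR 2.4.0 on GRCm38 per the labels. Of the deposited columns the one blind to strand was used, and the annotation behind the counts and a stranded kit are not given in the sources used here. Names, positions and exon lengths (basic transcripts) came from GENCODE vM21, which held 45143 of the 45706 gene IDs, and promoters from RefSeq.

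Within each cohort, low counts were removed by filterByExpr, libraries were scaled with TMM, and KO was tested against control in edgeR 4.0.16 (R 4.3.3) by its quasi-likelihood test. The difference of the KO effects was fitted over all 18 kidneys. P-values were two-sided and adjusted over all genes tested (Benjamini-Hochberg, threshold 0.05). The SE was the log2 fold change divided by the square root of F. Levels are CPM scaled by TMM over the 18 kidneys, with a pseudocount of 0.5 for log2 values per kidney. The labels name replicates without saying that each is a separate mouse, so p-values set a change against the spread between these kidneys. No pair of kidneys in a group agreed within counting error.

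Alternatives used limma 3.58.1, DESeq2 1.42.0, ComBat of sva 3.50.0, other scalings, filters and strand columns, a length and GC correction, a replicate block and leaving out each kidney. Figures used matplotlib 3.10.9. Simulated data held 200 genes changed by 0.5 or by 1 on the log2 scale. The *Myc* design found 31.6% of the smaller and 95.9% of the larger changes (14909 genes tested). The *Cxcl12* design found 21% and 86.6% (15091 genes tested). Each gene was drawn independently at the same spread, with no shift shared by a kidney and no change near -0.28. These shares therefore need not hold for the family in the real data. Named genes were those called, the 4 largest falls and rises per cohort, the 3 smallest p-values of the difference, the 2 highest and lowest levels per subunit, genes that failed the filter or have pseudogene copies, fixed members with special roles, genes called in the lists on mitochondrial translation, and the targets. *Mrpl2*, *Mrpl20*, *Mrpl37* and *Havcr1* were named after their values were seen. The members and lists were chosen with earlier results of these data known.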

Additional observations from a re-analysis of the deposited data

Results flagged for a closer look

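Among the genes named above, 2 values stood far from the other kidneys of their group. *Mrps6* was at 139 CPM in *Myc* KO 5, when the other 4 *Myc* KO kidneys lay between 100 and 110 CPM. *Mrpl23* was at 1.18 CPM in *Myc* KO 4, when the others lay between 0.501 and 0.633 CPM. The gap was larger than Dixon's critical value of 0.71 allows for 5 samples. Chance flags about 1 in 20 groups, and over all 78 genes 5 were beyond that value in the *Myc* KO, 2 in the *Myc* control and 3 in the *Cxcl12* KO kidneys. The change of *Myc* itself differed between the cohorts (difference -1.83 on the log2 scale, adjusted p = 0.000107, edgeR), since it was the gene deleted in one of them.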

How the results depend on the processing

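The negative median in the *Myc* cohort, -0.28, ranged from -0.33 to -0.21 when 1 kidney was left out, and 75 to 77 of the 77 genes stayed negative. The number of genes called was less stable. Against 4, when 1.65% of all genes were called, it was 12 with total counts and no TMM (2.62% of all genes), 21 with DESeq2 (7.63%), 2 with limma voom (1.44%), 2 with strand column 3 (1.13%), 60 with limma voom and ComBat (15.5%) and 22 in 1 fit of all 18 kidneys (4.29%). It was 33 with the split at 5% unmapped reads as a covariate (6.39%) and 0 within either part of that split (0.0532% and 0%). Leaving out 1 kidney gave 0 to 20. It was 0 without *Myc* KO 2, 3, 4 or 5 or *Myc* control 2 or 5, 1 without *Myc* control 4, and 20 without *Myc* control 3. ComBat took the split at 5% unmapped reads as the batch, over all 18 kidneys. The limma test that followed used the log CPM of voom without its weights, unlike the limma voom alternative. It took no account of the adjustment by ComBat, which can make its p-values too small. Why the number called varied was not tested.

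Deviations from the group mean were correlated between same-numbered KO and control kidneys. The correlations ran from -0.169 to 0.333 in the *Myc* cohort (5 pairs, mean 0.0572). In the *Cxcl12* cohort they ran from -0.0538 to 0.178 (3 pairs, mean 0.0774). Kidneys with different numbers had means of -0.0134 and -0.0192. So few pairs cannot show whether the numbers pair kidneys. With a replicate block 0 members and 18 genes were called in the *Myc* cohort, and *Noa1* had an adjusted p of 0.103.

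In the *Cxcl12* cohort no alternative called a gene of the family. Its median was -0.157 without TMM and -0.057 after the length and GC correction, and the difference between the subunits was -0.0198 with strand column 4 and -0.0043 after that correction. For the difference between cohorts 3 genes of the family were called by DESeq2 (1.97% of all genes), 2 with the covariate (0.836%) and 1 in the kidneys with 5% or more unmapped reads (0.283%).

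Of 1247 values of single genes under alternatives 63 changed sign, over 18 pairs of a gene and a comparison. In the *Myc* cohort *Mrps6* turned positive with the filter on CPM above 1 (0.00401), voom (0.018), strand column 3 (0.0282), the length and GC correction (0.135), the replicate block (0.0183), voom with ComBat (0.0193) and in the kidneys with under 5% unmapped reads (0.156). *Mrpl33* turned with strand column 3 (0.0118), the length and GC correction (0.0432) and in the kidneys with under 5% (0.0476). In those kidneys *Mrps18c* (0.066), *Mrps25* (0.0587), *Mrps33* (0.0714) and *Cxcl12* (-0.0305) turned. *Mrps25* turned with strand column 3 (0.0503), and *Mrpl18* (0.0582) and *Mrps21* (0.000225) with the length and GC correction. In the *Cxcl12* cohort *Mrpl17* turned without TMM (-0.0549), with the filter on CPM above 1 (-0.00216), DESeq2 (-0.000501), voom (-0.00157), strand column 4 (-0.0272), the length and GC correction (-0.0366) and the block (-0.016). *Mrpl18* turned without TMM (-0.0319), with strand column 3 (-0.036) and the block (-0.00128). *Mrpl36* turned without the filter (0.00143), with strand column 3 (0.0425), the length and GC correction (0.0822) and 1 fit of all kidneys (0.00206). *Mrps12* turned with the length and GC correction (0.0483), the covariate (0.0157) and only kidneys with 5% or more (0.00916). *Mrpl19* turned with strand column 4 (0.0291), *Mrpl52* with the block (-0.011), *Mrpl58* without TMM (-0.0279) and *Mrps25* with strand column 3 (0.00226).

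With 1 kidney left out, signs turned within these ranges. In the *Myc* cohort *Mrpl18* ran from -0.1003 to 0.0261, *Mrps6* from -0.0936 to 0.121 and *Mrps21* from -0.209 to 0.0376. In the *Cxcl12* cohort *Mrpl17* ran from -0.0347 to 0.0312, *Mrpl18* from -0.0213 to 0.0512, *Mrpl19* from -0.136 to 0.0133, *Mrpl36* from -0.059 to 0.0415, *Mrpl52* from -0.0221 to 0.148, *Mrpl58* from -0.0059 to 0.0745, *Mrps6* from -0.0191 to 0.165 and *Mrps18b* from -0.0635 to 0.163.

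The number of all genes called in the *Myc* cohort, 246, was 1139 with DESeq2, 954 with the covariate and 18 with the block.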
